A study of Mus musculus with 15 samples.

Results

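The Hox genes encode homeodomain transcription factors and lie in 4 tight clusters. They were taken as the protein-coding genes of the RefSeq mouse table whose symbol is Hoxa, Hoxb, Hoxc or Hoxd followed by a digit, which gave 39 of 21887 protein-coding genes: 11 in Hoxa on chromosome 6, 10 in Hoxb on chromosome 11, 9 in Hoxc on chromosome 15 and 9 in Hoxd on chromosome 2. Accessible chromatin was mapped by ATAC-seq, in which a transposase cuts open DNA, in haematopoietic stem cells (HSC) sorted from adult mice that had received poly(I:C). The WT control was Mx1-Cre-/-;mTORflox/flox, the KO was Mx1-Cre+/-;mTORflox/flox and the KI was Mx1-Cre+/-;mTORflox/knockin, with 1 library each. The Mx1 promoter that drives Cre responds to interferon, and all 3 groups received poly(I:C), its inducer. The control has no Cre, so Cre and the Mtor alleles cannot be told apart in a comparison with it. Only the WT and KO libraries are labelled as re-analysed, a mark that cannot be told apart from genotype in a comparison with KI. How many animals gave the cells of a library is not given in the sources used here. A further 12 RNA-seq samples were not analysed here.

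The order of the genes along a Hox cluster matches the order in which they are used along the body axis, and all genes of a cluster are read in the same direction. Their proteins bind DNA together with the TALE homeodomain partners of the PBX and MEIS families. MLL-type complexes built on Kmt2a keep active Hox genes on, and Polycomb complexes keep the others silent. In blood, genes of the Hoxa and Hoxb clusters are known to be used in stem and progenitor cells, Hoxa9 and Hoxb4 being the members most studied for self-renewal.

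The WT list held 17316 peaks, the KO list 19189 and the KI list 28391, at a read depth that the files do not give. As a check of the labels, a peak lay over the start of Mtor in the WT and KI lists and not in the KO list. Of 10 HSC markers, 7 had a peak within 1 kb of a gene end in WT, 4 in KO and 6 in KI. Kit, Flt3, Mecom and Hlf had one in all 3 lists, while Slamf1, Ly6a and Gata2, which help define these cells, had none in any list. The interval of the HSC marker share was 39.7% to 89.2% in WT, 16.8% to 68.7% in KO and 31.3% to 83.2% in KI. Each includes the share of all protein-coding genes, 44.2% in WT, 44.1% in KO and 51.4% in KI. The marker counts therefore cannot be told apart from those of all genes. With no second library of a genotype there is no replicate error, and no test was made between genotypes. Intervals are Wilson 95% intervals that cover counting error alone. A peak list cannot tell an open site in fewer cells from a less open site in each cell.

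The Hox windows held a handful of peaks in each list, most of them in KI. Each window ran from the first to the last Hox gene of a cluster with 50 kb either side, in all 892 kb. These windows held 3 peaks in WT, 2 in KO and 11 in KI. Per 100 kb that is 0.336 in WT against 0.636 over its whole list, 0.224 in KO against 0.705, and 1.23 in KI against 1.04. The Hoxc window held none in any list. All 16 peaks stood below the median score of their own list: the WT peaks ranked between percentiles 3.56 and 26.3, those of KO between 28.7 and 31.6, and those of KI between 3.37 and 48.5. The score is the authors' value per peak, and its percentile is the rank within the list, from weak (0) to strong (100).

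**Figure D1:**
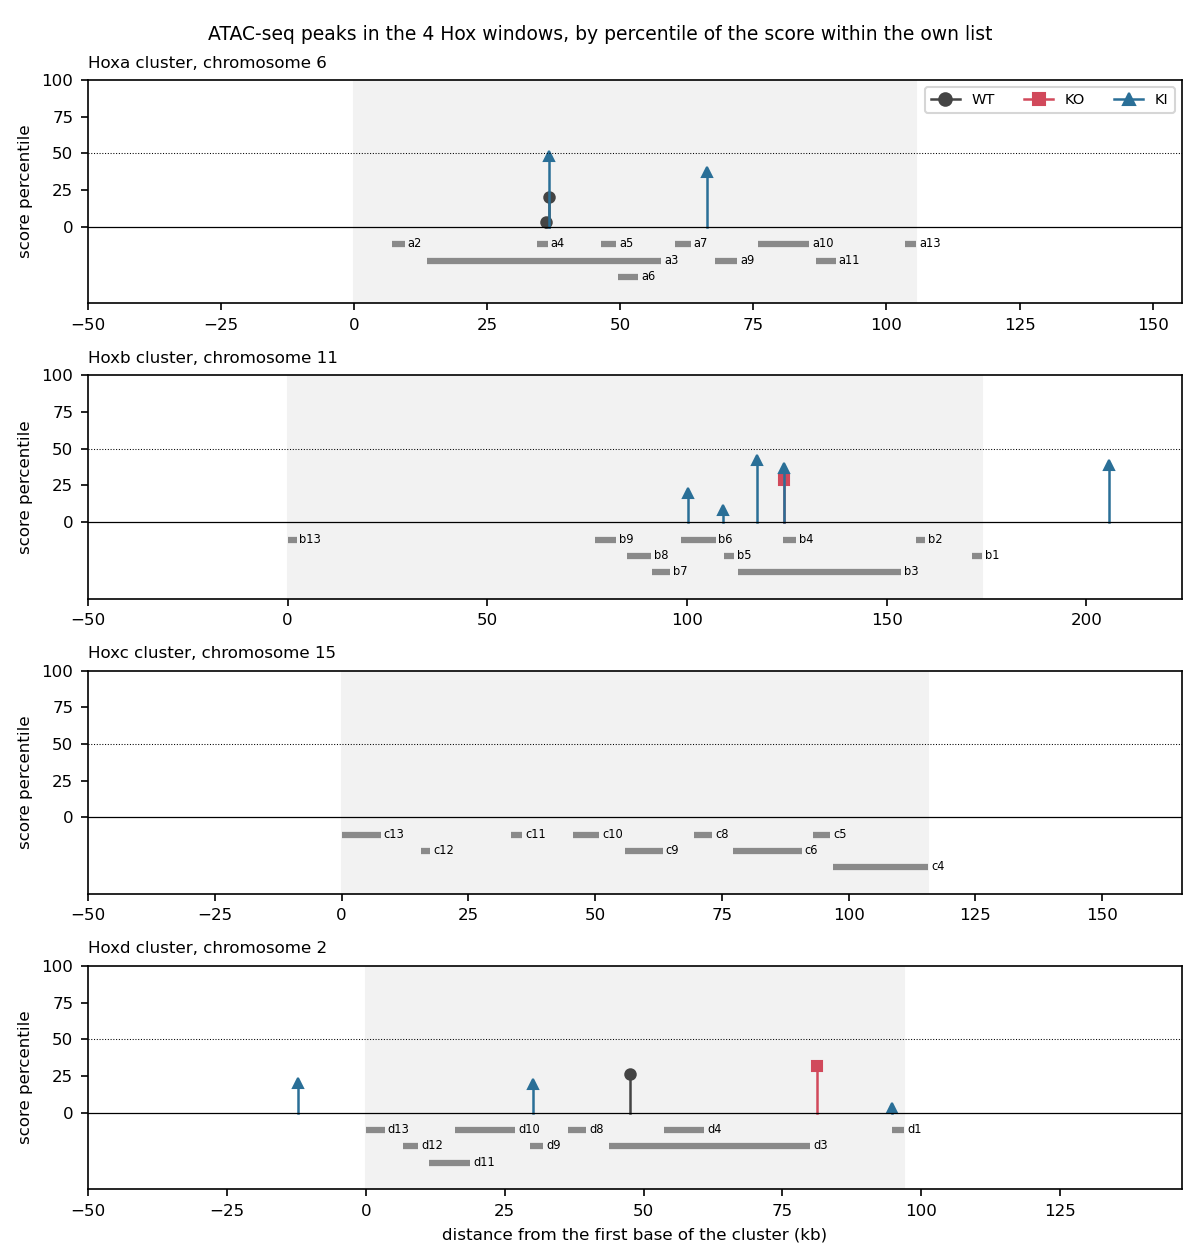
Peaks of the 3 libraries in the 4 Hox windows, placed by distance in kb from the first base of each cluster (grey area: first to last Hox gene; grey bars: genes), with the percentile of the peak's score within its own list as height. Genes and peaks not reported here are not drawn; all markers stay under the dotted line at percentile 50, and the Hoxc panel has none.

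Per length of DNA, the windows could not be told apart from the rest of the genome. They made up 0.0328% of the 2721 Mb that the peaks span, and held 0.0173% of the WT peaks (interval 0.00589 to 0.0509). The share was 0.0104% of the KO peaks (0.00286 to 0.0380) and 0.0387% of the KI peaks (0.0216 to 0.0694). All 3 intervals include the share by length. The window peaks were narrow: their median width was 372 bp for WT, 372 bp for KO and 417 bp for KI, against 590, 514 and 477 bp over the whole lists. Against peaks of no higher percentile than the window's strongest, with median widths of 408, 364 and 344 bp, the window peaks were narrower in WT alone.

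In the Hoxa cluster the site that stood out was Hoxa4, a gene of the central part of the cluster. The WT list had 2 peaks there, at chr6:52191655-52192121 (467 bp, percentile 20.3) across the upper end of the gene and at chr6:52191169-52191468 (300 bp, percentile 3.56) inside it. KI had 1 peak across the same end, at chr6:52191677-52192194 (518 bp, percentile 48.5), the highest-ranked of the KI window peaks. The upper end is the start of Hoxa4 if it is read like the other tabled genes of the cluster, whose 10 starts all lie on the minus strand. The site also lies inside the long annotated span of Hoxa3. The nearest KO peak was 178 kb away.

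KI also had a Hoxa peak between Hoxa7 and Hoxa9, where WT and KO had none, at chr6:52221571-52221885 (315 bp, percentile 37.4), 1212 bp from the downstream end of Hoxa9. Hoxa9, whose product is a self-renewal factor of stem cells and a driver of leukaemia, had no peak at its start in any library. The nearest peak to that start was 35.2 kb away in WT, 214 kb in KO and 5.49 kb in KI. The 250 bases before the Hoxa9 start, from RefSeq (GRCm38.p6), are shown because no list covers any of them.
Hoxa9, chr6:52227371-52227620, minus strand: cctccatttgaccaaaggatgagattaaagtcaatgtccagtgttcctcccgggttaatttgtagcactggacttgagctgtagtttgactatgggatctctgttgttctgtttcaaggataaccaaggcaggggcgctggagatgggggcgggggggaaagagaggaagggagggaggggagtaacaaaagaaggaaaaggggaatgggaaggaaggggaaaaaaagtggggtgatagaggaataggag
Hoxa2, Hoxa5, Hoxa6, Hoxa7, Hoxa10, Hoxa11 and Hoxa13 had no peak in the gene or within 1 kb of its ends in any list. The KO list had no peak at all from 142 kb before the cluster, inside the signalling adaptor gene Skap2, to 210 kb beyond Hoxa13.

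In the Hoxb cluster WT had no peak at all, KO had 1 and KI had 5. The KO peak lay in Hoxb4, at chr11:96318429-96318803 (375 bp, percentile 28.7), and overlapped a KI peak at chr11:96318398-96318826 (429 bp, percentile 36.8). These peaks began 162 bp and 131 bp past the annotated start of Hoxb4, the gene best known for expanding stem cells when its product is raised. The nearest WT peak was 242 kb away. Both peaks also lie inside the long span of Hoxb3. The 250 bases before the start, shown because both peaks begin only after the start, lie in no peak.
Hoxb4, chr11:96318017-96318266, plus strand: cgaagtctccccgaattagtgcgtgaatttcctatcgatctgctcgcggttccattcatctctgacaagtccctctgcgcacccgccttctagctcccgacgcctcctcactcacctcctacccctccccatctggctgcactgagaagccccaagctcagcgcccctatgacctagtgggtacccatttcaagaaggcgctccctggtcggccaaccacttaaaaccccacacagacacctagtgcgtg
KI alone had peaks inside Hoxb6 (chr11:96294416-96294855, percentile 19.9), 84 bp below Hoxb5 (chr11:96303081-96303428, percentile 8.01) and inside Hoxb3 (chr11:96311589-96312005, percentile 42.6). The first 2 of these also lie in the antisense gene Hoxb5os. The fifth KI peak lay 31.7 kb past Hoxb1, the most anterior gene, at chr11:96399931-96400266 (percentile 38.7). Hoxb13, the most posterior gene, stands apart from the rest of the cluster, and its nearest peak was 118 kb away in WT, 118 kb in KO and 97.8 kb in KI.

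The Hoxc cluster was empty. None of its 9 genes, from Hoxc4 to Hoxc13, had a peak within 100 kb in any library. From a Hoxc gene to the nearest WT peak it was between 178 and 243 kb, to the nearest KO peak between 126 and 214 kb, and to the nearest KI peak between 126 and 206 kb. The stretch without a peak around the cluster measured 493 kb in WT, 441 kb in KO and 420 kb in KI. Gaps at least as long made up 6.22% of all gaps between neighbouring WT peaks, 6.31% in KO and 3.99% in KI, so such a stretch is not rare in these lists. It ended at Calcoco1 in WT and KO and 20370 bp from that gene in KI. On the other side it ended inside Cbx5, a heterochromatin protein gene, in WT and inside the DNA repair gene Smug1 in KO and KI.

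In the Hoxd cluster each library had peaks at other places. WT had 1 peak inside Hoxd3, at chr2:74715688-74716059 (372 bp, percentile 26.3), where the antisense gene Hoxd3os1 overlaps it. KO had 1 peak, at chr2:74749320-74749688 (369 bp, percentile 31.6), inside the non-coding gene Haglr and 1049 bp past the end of Hoxd3. KI had 3: one over the start of Hoxd1 (chr2:74762807-74763096, 290 bp, percentile 3.37), one 480 bp into Hoxd9 (chr2:74698243-74698491, 249 bp, percentile 19.6) and one inside Evx2, a homeobox gene next to the cluster (chr2:74655795-74656250, 456 bp, percentile 20.3). No Hoxd peak of one list overlapped a peak of another. The nearest WT peak to the Hoxd1 peak was 46.7 kb away and the nearest KO peak 13.1 kb.

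Hoxd1 was the one Hox gene with a peak over its tabled promoter, although its peak ranked lowest of the 11 in KI. The 250 bases before its start are shown with the 173 bases inside the KI peak in capitals; of all 250 bases 71.6% are G or C.
Hoxd1, chr2:74762730-74762979, plus strand: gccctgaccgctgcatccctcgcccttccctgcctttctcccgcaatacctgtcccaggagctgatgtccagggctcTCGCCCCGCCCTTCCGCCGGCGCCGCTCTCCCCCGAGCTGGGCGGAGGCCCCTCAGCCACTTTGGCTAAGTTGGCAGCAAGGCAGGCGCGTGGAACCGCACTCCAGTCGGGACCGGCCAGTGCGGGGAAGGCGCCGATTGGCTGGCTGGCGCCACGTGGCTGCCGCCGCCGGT
The Hoxd1 peak also overlaps Haglr, whose annotated span borders Hoxd1, so that the peak cannot be assigned to 1 gene.

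Counted by gene, few Hox genes had a gene-end peak, meaning one that lies within 1 kb of either annotated end. In WT 1 of 39 did (Hoxa4; 2.56%, 0.454 to 13.2), against 44.2% of all protein-coding genes. In KO 1 of 39 did (Hoxb4; 2.56%, 0.454 to 13.2), against 44.1%. In KI 5 of 39 did (Hoxa4, Hoxb4, Hoxb5, Hoxd1 and Hoxd9; 12.8%, 5.60 to 26.7), against 51.4%. All 3 intervals lie below the share of all genes, but neighbouring Hox genes share their surroundings and are not independent counts. By position, the KI genes were 1 of 8 anterior (paralogue groups 1 to 3), 3 of 15 central (groups 4 to 8) and 1 of 16 posterior genes (groups 9 to 13). The single WT and KO genes were both central, of paralogue group 4.

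The nearest peak lay farther from Hox genes than from most genes. The median distance from a Hox gene to the nearest peak was 66.7 kb in WT, 126 kb in KO and 12.0 kb in KI, whereas the median over all protein-coding genes was 0 in each list, since most of them carry a peak inside (51.1% in WT, 51.6% in KO and more in KI). In WT 19 of 39 Hox genes (48.7%) had no peak within 100 kb, all of them in Hoxb and Hoxc, against 17.6% of all genes. The KO count was 21 (53.8%, all genes 16.8%), made up of the 11 Hoxa genes, Hoxb13 and the 9 Hoxc genes. The KI count was 9 (23.1%, all genes 13.4%), the Hoxc genes. These distances rest on the few peaks named above: the Hoxa genes lay within 100 kb of one in WT and KI, and the Hoxb genes, Hoxb13 apart in KO, in KO and KI.

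**Figure D2:**
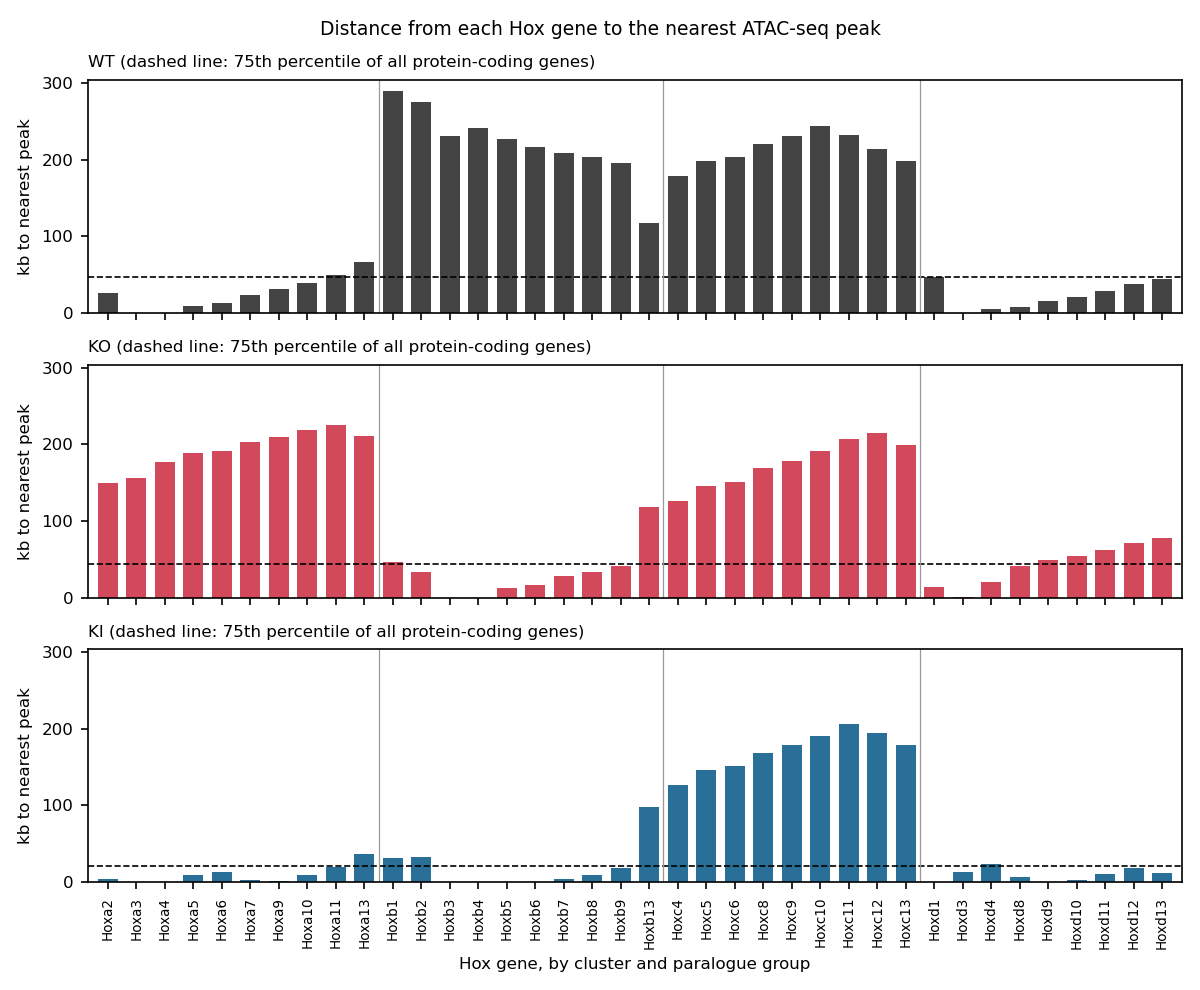
Distance in kb from each Hox gene reported here to the nearest peak of the WT, KO and KI lists (bars; no bar where a peak lies in the gene), with the 75th percentile over all protein-coding genes as a dashed line (47.1 kb in WT, 43.8 kb in KO and 21.6 kb in KI). The Hoxc bars are high in all 3 panels, the Hoxb bars in WT and the Hoxa bars in KO.

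The comparison of WT with KO asks what differs at these genes when Mtor is deleted. Hoxa4 lost its gene-end peak, present in the WT list alone of this pair, and Hoxb4 gained one, present in the KO list alone. That is 1 lost and 1 gained of 39 genes (2.56% each), where 4.65% of all protein-coding genes were lost and 4.58% gained. The gained count does not exceed the background. Hoxa4 was the only Hox gene with a WT gene-end peak, so the lost share could not have exceeded 2.56%. Its comparison with 4.65% therefore decides nothing. Of the 9677 protein-coding genes with a WT gene-end peak, 1017 had none in KO. None of the 3 WT window peaks overlapped a KO peak (100% absent, 43.9 to 100), while 25.5% of all WT peaks were absent from KO. None of the 2 KO window peaks overlapped a WT peak (100%, 34.2 to 100), while 32.4% of all KO peaks were absent from WT. Weak peaks are shared less often in general. Of the WT peaks at or below the percentile of the strongest WT window peak 56.9% were absent from KO, and of the KO peaks chosen likewise 63.7% were absent from WT.

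Set against WT, the KI library shows these genes in cells that carry the knock-in allele. Hoxa4, the only Hox gene with a WT gene-end peak, also had one in KI, so at most 1 gene could have been lost. Of the 9677 protein-coding genes with a WT gene-end peak, 318 lacked one in KI (1.45% of all genes). Hoxb4, Hoxb5, Hoxd1 and Hoxd9 had one in KI and not in WT, 4 of 39 genes (10.3%), close to the 8.66% of all genes. Of the 3 WT window peaks 2 were absent from KI (66.7%, 20.8 to 93.9), against 13.1% of all WT peaks and 34.2% of those of like score. The shared peak was that at the Hoxa4 end, and the second WT peak inside Hoxa4 missed the KI peak by 209 bp. Of the 11 KI window peaks 10 were absent from WT (90.9%, 62.3 to 98.4), against 46.5% of all KI peaks and 76.6% of those of like score. The KI list is much the longest. The KO and KI lists were also shortened to their 17316 highest-scoring peaks, the length of the WT list. The KI windows then kept 2 peaks, those at Hoxa4 and inside Hoxb3. The KO count stayed at 2, while the WT list was not shortened and kept its 3. No Hox gene was then gained in KI. The share of all genes gained was not computed at this list length, so that count has no background beside it. Markers of other cell types were counted in the same way, against 44.2% of all protein-coding genes in WT, 44.1% in KO and 51.4% in KI. The granulocyte and monocyte list had 0 of 6 in WT, 0 in KO and 4 in KI (Mpo, Csf1r, Adgre1 and S100a8, with Elane and Ly6g at none), and the erythroid list had 0 of 4 in WT, 2 in KO and 3 in KI, with Klf1 at none. Of the B lymphoid markers 1 of 4 had a peak in WT, 0 in KO and 2 in KI, with Pax5 at none. Of the T lymphoid markers 0, 1 and 1 of 4 had one (Bcl11b), and of the stromal and endothelial markers 1, 2 and 2 of 6. The granulocyte and monocyte intervals of WT and KO (0 to 39.0% in each) lie below the share of all genes. Every other interval of these marker lists includes it. The part of cells of these other types in the KI result was not tested.

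Between the 2 mutants, KO and KI, the lists shared 1 site in the windows, Hoxb4. The other KO window peak, in Haglr, was absent from KI (1 of 2, with an interval of 9.45% to 90.5%), against 16.0% of all KO peaks and 37.0% of those of like score. Of the 11 KI window peaks 10 were absent from KO (90.9%, 62.3 to 98.4), against 43.2% of all KI peaks and 72.3% of those of like score. At equal list size the KI peak in Hoxb4 (score 75.6) fell below the lowest score kept (77.95), and no window site was shared. Merged across lists, the 16 window peaks formed 14 regions. None had a peak in all 3 lists, whereas 37.5% of the 32768 regions of the genome had. Of the 14, 9 were present in KI alone (29.3% of all regions), 2 in WT alone (5.52%) and 1 in KO alone (8.0%). Another was shared by WT and KI (7.71%) and another by KO and KI (10.7%). These shares of all regions are not matched for score, and all window peaks are weak.

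Promoter sequence was available in the RefSeq table for 22 of the 39 genes, as 24 promoters of 300 bases (250 before and 50 after the start). Hox promoters were rich in G and C, with a median of 57.7% against 52.7% over all 32851 tabled promoters. Across all genes, promoters with over 55% G and C carried a peak more often than promoters as a whole. Of them 57.7% overlapped a WT peak, 56.9% a KO peak and 65.5% a KI peak. In the class of over 55 to 60%, which includes the Hox median, it was 41.3%, 41.3% and 48.6%. Of the 14 Hox promoters with over 55%, 0 overlapped a WT peak, 0 a KO peak and 1, that of Hoxd1, a KI peak. Over all 24 Hox promoters the counts were likewise 0, 0 and 1, where 30.6%, 30.3% and 35.6% of all promoters had a peak. These counts leave out Hoxa4 and Hoxb5, which had gene-end peaks but no tabled promoter. Only 3 of the 10 Hoxb genes and 1 of the 9 Hoxc genes were tabled.

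**Figure D3:**
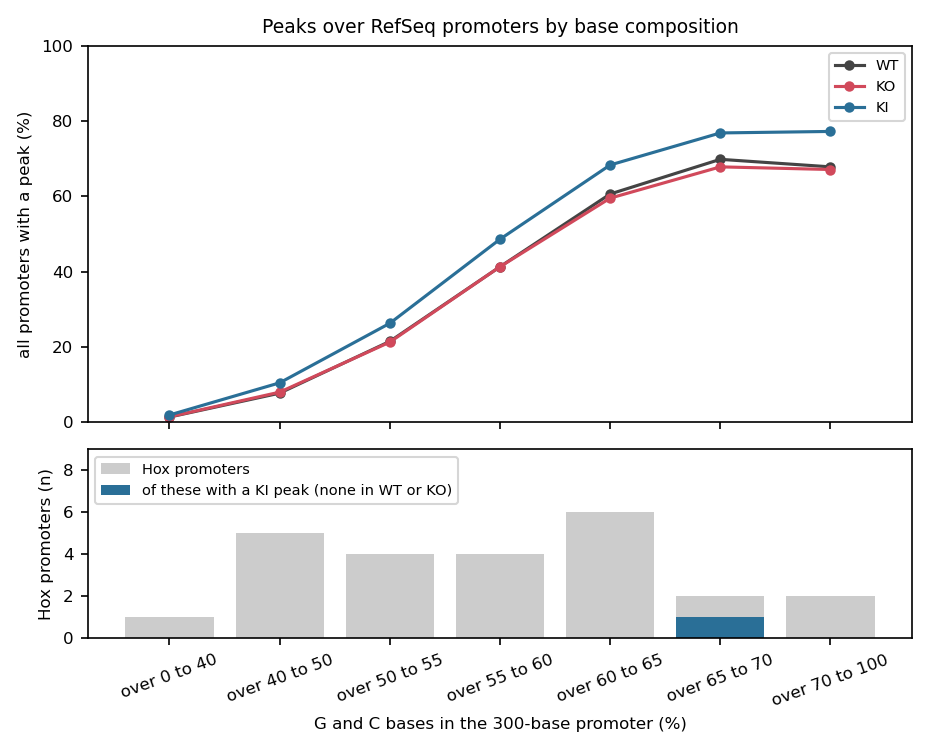
Top, percentage of all tabled 300-base promoters that overlap a peak of the WT, KO or KI list, by their percentage of G and C bases; bottom, the number of Hox promoters in each class, with the 1 under a KI peak in blue. The percentage reaches 69.8% in WT and 77.2% in KI, while the Hox promoters are spread over the whole range with 1 peak in all.

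The same 24 promoters were searched on both strands for short motifs. The PBX-HOX motif TGATNNAT, the site of a Hox protein with its PBX partner, was found in 4 Hox promoters (Hoxa2, Hoxb1, Hoxb8 and Hoxd11) and in 8.85% of all promoters. The MEIS motif TGACAG was found in 2 (Hoxa2 and Hoxa3) and in 19.2% of all, and the TATA box TATAAA in 4 (Hoxa10, Hoxb8, Hoxd4 and Hoxd13) and in 13.6%. The TATAAA matches, most of them in the reverse form TTTATA, lay at offsets from -199 (Hoxb8) to -10 (Hoxd4) from the start. Whether any of them works as a TATA box was not tested. The RUNX motif TGTGGT was found in 1 (Hoxd10) and in 16.8%. The GATA motif AGATAA (11.2% of all) and the core motif of CTCF (2.43%) were found in none. No matches of different motifs overlapped. Hoxb1 is shown with its PBX-HOX match in capitals, since its promoter is a known target of Hox and PBX proteins. Its start lay 289 kb from the nearest WT peak, 47.0 kb from the nearest KO peak and 34.2 kb from the nearest KI peak.
Hoxb1, chr11:96365508-96365757, plus strand: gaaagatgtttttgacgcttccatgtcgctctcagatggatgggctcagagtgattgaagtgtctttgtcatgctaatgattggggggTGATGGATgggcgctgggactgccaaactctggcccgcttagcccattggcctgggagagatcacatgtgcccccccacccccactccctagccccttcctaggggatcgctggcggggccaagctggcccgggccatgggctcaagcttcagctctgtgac

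Genes that work with the Hox genes were counted in the same way, against 44.2% of all genes in WT, 44.1% in KO and 51.4% in KI. Of the 9 TALE partners 5 had a gene-end peak in WT (55.6%, 26.7 to 81.1), 5 in KO and 6 in KI (66.7%, 35.4 to 87.9), intervals that include the share of all genes. Meis1, which raises Hox activity in stem cells, Pbx3, Pbx4 and Pknox1 had one in all 3 lists, Pbx2 was gained in KI, and Meis2, Meis3 and Pknox2 had none. Of the 12 activators and maintenance factors 10 had one in WT and 9 in each mutant. Kmt2a, the MLL methyltransferase, its partners Men1 and Psip1, and Dot1l had one in every list, Cdx2 in WT alone, and Cdx1 and Cdx4 in none. The count for the 13 Polycomb genes was 10 in WT, 9 in KO and 12 in KI. The PRC1 genes Bmi1 and Ring1 had a peak in WT and KI but not in KO, the methyltransferase gene Ezh1 in both mutants but not in WT, Cbx2 in KI alone and Cbx7 in no list. Against WT, 15.4% of the Polycomb genes were lost and 7.69% gained in KO, and 0% and 15.4% in KI. Over all protein-coding genes 4.65% were lost and 4.58% gained in KO, and 1.45% and 8.66% in KI. In lists this short such shares rest on 1 or 2 genes, and no genotype difference was tested. Of the 4 boundary factors Ctcf, Smc3 and Maz had one in each list and Rad21 in none.

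Other homeobox families also had few peaks. Of 106 genes of such families, the 3 Cdx genes above included, 14 had a gene-end peak in WT (13.2%, 8.03 to 21.0). The KO list had one at 9 of them (8.49%, 4.53 to 15.4) and the KI list at 19 (17.9%, 11.8 to 26.3). The Hox share was lower in each list, with intervals that overlap. Their median distance to the nearest peak was 37.2 kb in WT, 32.5 kb in KO and 11 kb in KI. The Hox medians were 66.7, 126 and 12.0 kb, so those of KI were close. The share of these genes with no peak within 50 kb was 45.3% in WT, 36.8% in KO and 18.9% in KI. Of the Hox genes it was 51.3%, 64.1% and 25.6%. With 100 kb as the limit the share was 20.8% in WT, 15.1% in KO and 8.49% in KI. Of the Hox genes, whose clustering makes them share such stretches, it was 48.7%, 53.8% and 23.1%. These differences were not tested.

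**Figure D4:**
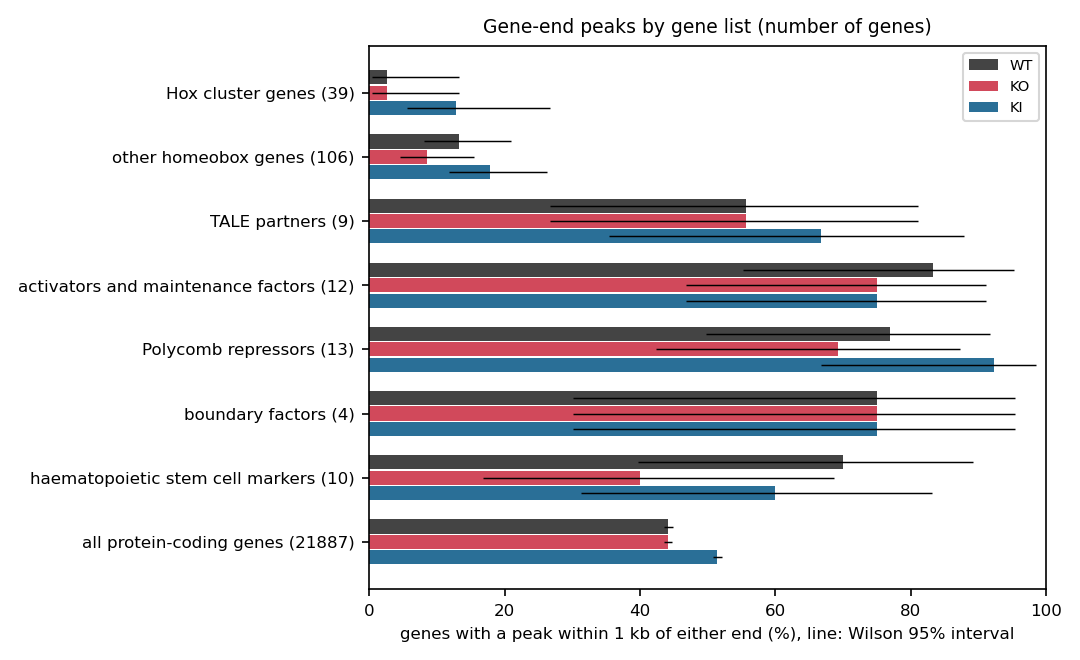
Percentage of genes with a peak within 1 kb of either end in the WT, KO and KI lists (bars, from 0) with Wilson 95% intervals (lines), for the Hox genes, other homeobox genes, the 4 lists of Hox partners and regulators, HSC markers and all protein-coding genes. Within each list the Hox bar (2.56% in WT, 2.56% in KO and 12.8% in KI) is the shortest, followed by that of the other homeobox genes.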

How the data were processed

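ATAC-seq used 50000 sorted cells per library, with transposition for 30 min at 37 °C, per the labels' protocols. Each deposited file lists 1 library's peaks in 5 columns, with names as MACS writes them. The fifth column is the deposited score of each peak, used only to rank and filter within its list. Build mm10 and CASAVA are named in the submitters' processing notes. For the aligner, the caller's version, duplicate handling and read shift, the setting was not given in the sources used here. The files do not state how deeply a library was sequenced, and list length grows with depth, so it does not measure accessibility.

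Only peaks of the autosomes and of X and Y entered. Genes and promoters came from RefSeq tables of GRCm38.p6, the assembly behind mm10; strand was known only for genes in the promoter table. A peak sharing no base with the other list was absent from it. Every Hox gene entered the counts, although some named results are not reported here, and those with a gene-end peak in any list, or lost or gained, were named with values. The Hox genes, partner lists and markers were chosen with earlier results of these data known. The other homeobox genes (by family symbol, without Pax) and the promoter comparison by base composition were added after the values were seen. Interval functions were tested on the WT list with peaks removed, on peaks placed below the lower end of annotated genes and on random intervals. Alternatives were other gene-end distances, flanks and overlaps, a stricter score and equal list sizes. Python 3.11.15, pandas 2.3.3 and scipy 1.17.1 were used.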

Additional observations from a re-analysis of the deposited data

How the results depend on the processing

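Of 70 recomputed values, 49 stayed near the reported one (counts and medians within 1.5 times, shares inside their interval) and 21 moved. A reversal of direction was not looked for. The share intervals are wide, so a share could change much and still count as near. At equal list size the WT list kept every peak, so its window count could not move there. At a deposited score of at least 100 no window peak was left: 0 peaks and 0 Hox genes with a gene-end peak in WT, KO and KI, 0 lost or gained in KO and 0 gained in KI, and no share or median could be computed. At equal list size KI kept 2 window peaks (median percentile 10.7 within the shortened list), 1 Hox gene with a gene-end peak and 0 gained. The absent shares there became 100% of KO peaks from KI (2 of 2) and 50% of KI peaks from WT (1 of 2). Of KI peaks 100% were absent from KO (2 of 2). No share over all genes or whole lists was computed at any alternative setting, so these values have no background beside them. With gene ends taken within 2500 bp, 2 genes had a peak in KO (Hoxb4 and Hoxd3; 2 gained) and 8 in KI (Hoxa9 and Hoxb6 among those joining; 7 gained). A flank of 100 kb gave 4 KO window peaks. These moves follow from how each setting is built: fewer peaks, a wider gene-end distance or a wider window. No paired analysis was possible because each genotype has 1 library. Unknown depth limits every absence stated: a site without a peak may be open below the calling threshold.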

Other observations

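The Hox windows also hold other genes. Of 29 long non-coding RNA genes, 2 were overlapped by a peak in WT, 1 in KO and 5 in KI. The 6 microRNA genes were overlapped in none of the lists. No share over all long non-coding RNA or microRNA genes is given here, so these counts cannot be called low or high. They rest on the same window peaks as the Hox counts, and the KI list is the longest. Mir10a, which lies between Hoxb4 and Hoxb5, was 1155 bp from the Hoxb4 peak of KO and 1124 bp from that of KI, and its nearest WT peak was 240893 bp away. For Mir10b, inside the annotated span of Hoxd4, the nearest WT peak was 10011 bp away, the nearest KO peak 23183 bp and the nearest KI peak 27579 bp. Hottip, at the posterior end of Hoxa, and Hotair, in Hoxc, had no peak in any list.

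The nearest peak outside each cluster was looked up on both sides, 8 peaks a list. Of these, 6 in WT, 6 in KO and 1 in KI stood above percentile 50, the median of any list. The lowest percentile was 21.7 in WT, 18.1 in KO and 3.78 in KI. On several sides the nearest peak was not at the same site in all 3 lists, so these counts compare unlike sites. The KI peaks include the window peaks in Evx2 and past Hoxb1, given above with percentiles below 50. Inside Skap2, 142 kb before the Hoxa cluster, WT and KO had a peak at percentile 93.5 and 76.3. The nearest KI peak on that side was closer (130 kb, percentile 38.2), and whether KI has a peak inside Skap2 was not looked up. In Atp5g1, 118 kb from Hoxb13, all 3 lists had a peak, at percentile 76.4 in WT, 95.9 in KO and 96.2 in KI. In Lnpk, on the Hoxd13 side of Hoxd, WT and KO had a peak 89.0 kb and 88.9 kb away, at percentile 88.1 and 77.9. For KI the nearest peak on that side was the one in Evx2, 12.0 kb away, and a KI peak in Lnpk was not looked up.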
